A study of Mus musculus with 17 samples.

Results

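Cytochrome P450 genes of mouse liver were followed outside the Cyp2a, Cyp2b, Cyp3a and Cyp4a subfamilies and without the bile acid genes Cyp7a1, Cyp7b1, Cyp8b1 and Cyp27a1. Members were all other gene symbols of the form Cyp, number, letter and number with a count above 0 in at least 1 library, which gave 64 genes. Of these, 61 were among 29594 genes above 0 in liver, 58 were among 15632 genes listed in hepatocytes, and 55 were in both. They were sorted by role into Cyp1 (3 genes), Cyp2c (15), Cyp2d (8), Cyp2j (6), other Cyp2 genes (6), Cyp4f (9), other Cyp4 genes (3), retinoic acid breakdown (3), vitamin D (3), sterols and steroids (7) and Cyp20a1. RNA sequencing covered 2 experiments on mice that carry lesions in sphingomyelin synthase genes or in their relative SMSr. Liver came from 4 libraries labelled SMSrKO, named for loss of the sphingomyelin synthase-related protein SMSr (gene Samd8), and 4 WT libraries; all of these mice had 16 weeks of high-fat feed, with fructose in their drinking water. Hepatocytes were freed with collagenase from mice of 2 months. They gave 3 libraries labelled Sms1/Sms2/Smsr-tKO (tKO), for loss of both sphingomyelin synthases (genes Sgms1 and Sgms2) and of SMSr, 3 labelled Sms1/Sms2-dKO (dKO), for loss of the synthases alone, and 3 WT libraries. The labels give no Cre line, promoter or sex for any group, and no diet for the hepatocyte mice or age for the liver mice. The extraction text speaks of 3 mice a group for hepatocytes, but no label ties a library to an animal, so what p-values reflect here is sample-to-sample spread, part of which may be technical.

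Cytochromes P450 are haem enzymes that insert 1 atom of oxygen into a substrate with electrons passed from a reductase partner. In liver they are abundant in the endoplasmic reticulum, where families 1 and 2 oxidise drugs, toxins, steroids and fatty acids, and family 4 hydroxylates the ends of fatty acids and eicosanoids. Other members have narrow substrates: Cyp26 enzymes break down retinoic acid, Cyp2r1, Cyp27b1 and Cyp24a1 make and remove active vitamin D, and Cyp17a1, Cyp21a1, Cyp39a1 and Cyp46a1 act on steroids and sterols.

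Libraries held 24391627 to 37758188 counts in those labelled SMSrKO and 27045087 to 47351126 in WT liver, and 9504366 to 9665309 (tKO), 9320455 to 9394139 (dKO) and 9221488 to 9333077 (WT) expected counts in hepatocytes. The members held 1.91% to 2.13% of counts in SMSrKO liver and 1.17% to 1.74% in WT liver, and 0.672% to 0.705% in tKO, 0.767% to 0.787% in dKO and 0.862% to 0.875% in WT hepatocytes. RNA of the targeted genes did not part the groups as their labels would: Samd8 stood at 0.35 log2 in SMSrKO against WT liver (edgeR adjusted p = 0.218) and rose by 0.53 in tKO against WT hepatocytes, Sgms1 rose by 0.24 in tKO and 0.86 in dKO against WT, and Sgms2 fell by 0.29 in both. The labels do not say which part of each gene was deleted, and the groups carry the names on the labels throughout. The extract protocol names subcutaneous fat for the SMSrKO experiment, but 8 hepatocyte markers summed to 79343 to 88169 CPM (counts scaled to library size) in SMSrKO and 60283 to 70912 CPM in WT liver libraries, while 4 of 5 adipocyte markers were found, with sums of 10.1 to 16.4 CPM in SMSrKO and 3.40 to 93.3 CPM in WT and with Lep at 0 in every library. WT liver library 1 stood apart, since 10 handling and inflammation genes summed to 646 to 823 CPM in SMSrKO libraries, to 5996 CPM in WT 1 and to 841 CPM in the lowest WT library. Several liver values are therefore also given without WT 1.

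Cyp2e1, which oxidises ethanol and acetaminophen and is induced by fasting, was the most abundant member per gene length in both experiments. In liver it stood at 11710 ± 928 TPM in SMSrKO and 8397 ± 2531 TPM in WT (SD, n = 4 each), 54.0% of the summed TPM of the members and rank 10 among all genes. In hepatocytes it stood at 1363 ± 45.6 FPKM in tKO, 1918 ± 44.6 FPKM in dKO and 1595 ± 24.6 FPKM in WT (SD, n = 3 each), 37.0% of the members' summed FPKM. Cyp2d26 came second in both, with 1860 ± 41.2 TPM in SMSrKO and 1535 ± 218 TPM in WT liver, and 307 ± 10.3 FPKM in tKO, 374 ± 0.574 FPKM in dKO and 345 ± 5.73 FPKM in WT hepatocytes. The 5 highest members held 75.9% of the members' sum in liver and 63.0% in hepatocytes. Cyp2c37 led its subfamily per length in liver and Cyp2c29 in hepatocytes. Filters on low counts were passed by 46 members in liver and 41 in hepatocytes. Above 0 in liver alone were Cyp11a1, Cyp11b2, Cyp2j11, Cyp2t4, Cyp4f40 and Cyp4x1, and in hepatocytes alone Cyp11b1, Cyp24a1 and Cyp2c66, all but Cyp2t4 under the filter.

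The hepatocyte comparisons address the loss of both sphingomyelin synthases, and of SMSr on top of it. The main pattern was a shift inside the Cyp2c subfamily, with most members lower and Cyp2c55, Cyp2c38 and Cyp2c67 higher, together with higher Cyp26 genes and lower Cyp17a1. In tKO against WT, edgeR called 11 of 41 members higher, where 25.6% of all 11471 genes tested were higher, and 18 lower, where 21.8% of all genes were. In dKO against WT it called 12 higher, beside 24% of all genes, and 17 lower, beside 20%. In tKO against dKO it called 10 higher, beside 14.3%, and 9 lower, beside 15.2%. In both directions together the calls numbered 29 in tKO against WT, 29 in dKO against WT and 19 in tKO against dKO, where 47.4%, 44.0% and 29.5% of all genes were called. The members' share called lower was thus above the background in the comparisons with WT, where their share called higher was near it. Changes of at least 2-fold numbered 7 in tKO against WT (7.82% of all genes), 4 in dKO against WT (7.40%) and 5 in tKO against dKO (2.72%). Both comparisons with WT share the 3 WT libraries, so their values are given side by side. Median log2 fold changes of the members were −0.14, −0.01 and −0.06 in tKO against WT, dKO against WT and tKO against dKO, and 0.00, −0.01 and 0.00 over all genes. Replicate hepatocyte libraries varied little (common biological coefficient of variation 3.52%, against 20.3% in liver), and with the dispersion of the liver libraries the calls numbered 12 (tKO against WT), 8 (dKO against WT) and 4 (tKO against dKO). Those in tKO against WT were Cyp2c38, Cyp2c55, Cyp2c67, Cyp4b1, Cyp26a1 and Cyp26b1 (higher) and Cyp2c37, Cyp2c40, Cyp2c54, Cyp2c69, Cyp2d40 and Cyp17a1 (lower), those in dKO against WT Cyp4b1 and Cyp26b1 (higher) and Cyp2c29, Cyp2c37, Cyp2c40, Cyp2c69, Cyp2c70 and Cyp2d9 (lower), and those in tKO against dKO Cyp2c38, Cyp2c55 and Cyp2d9 (higher) and Cyp17a1 (lower). In that setting 7.65% of all genes were called higher and 3.00% lower in tKO against WT, 7.58% and 1.62% in dKO against WT, and 0.959% and 1.88% in tKO against dKO.

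**Figure D1:**
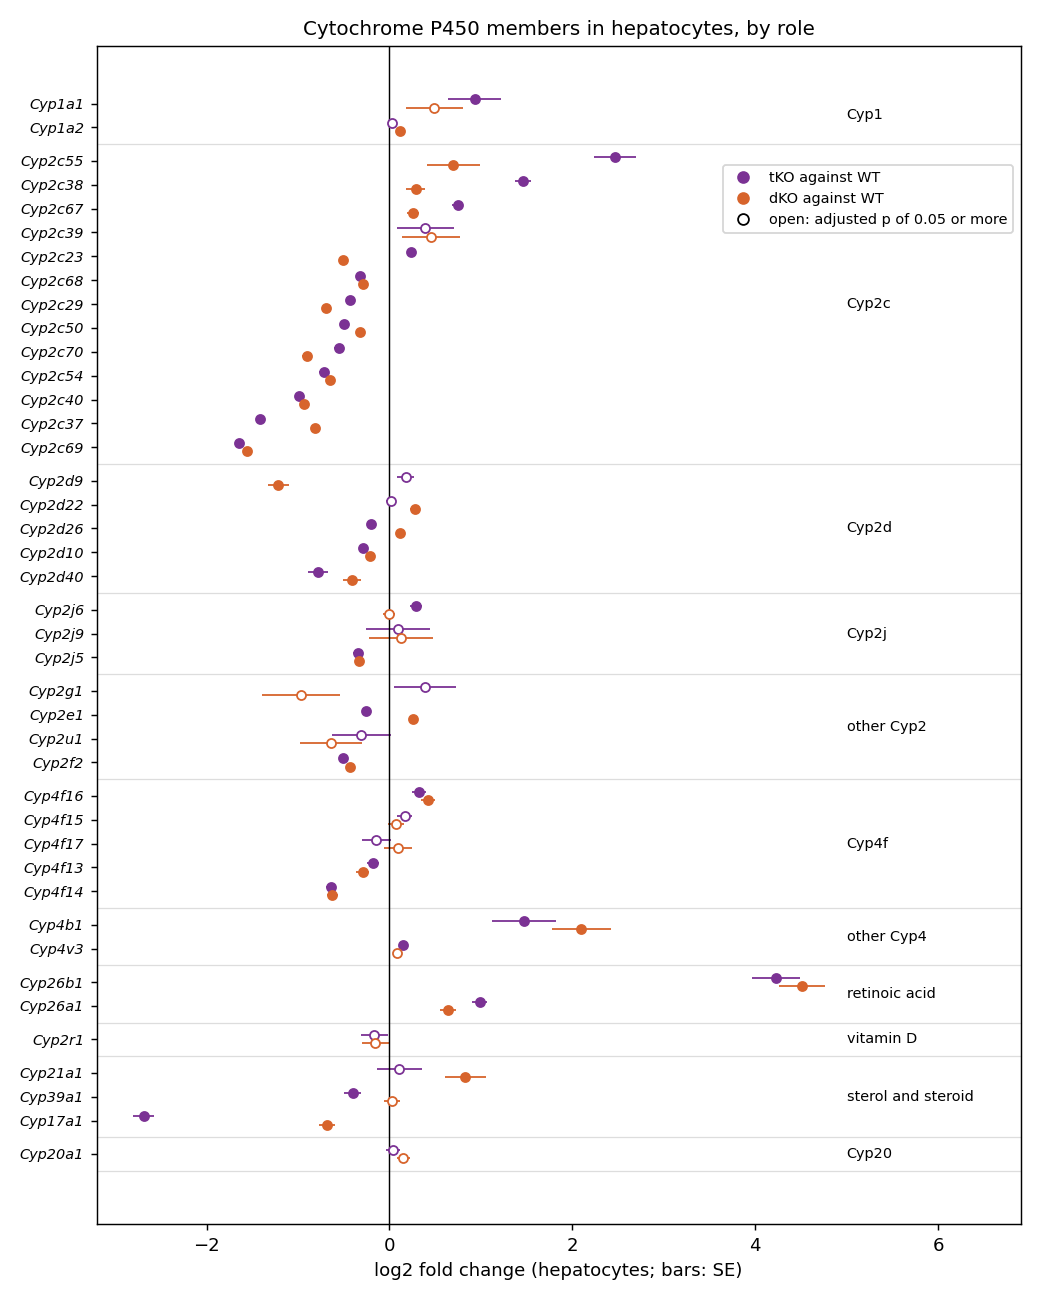
Log2 fold change with its SE for the 41 members that passed the filter in hepatocytes, grouped by role, for tKO against WT (purple) and dKO against WT (orange); filled points have an edgeR adjusted p under 0.05. Most Cyp2c members lie left of 0 and Cyp26b1 lies farthest to the right, at 4.22 in tKO and 4.51 in dKO.

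In these preparations fewer cells of a type and less RNA per cell cannot be told apart, and cell markers moved with the groups. Summed endothelial markers stood at 72.7 to 76.8 CPM in tKO, 122 to 139 CPM in dKO and 20.9 to 22.2 CPM in WT hepatocytes (8 of 8 genes found, none at 0), and 7 of the 8 rose in tKO and 8 in dKO against WT. Macrophage markers summed to 364 to 385, 318 to 338 and 121 to 136 CPM, stellate and fibroblast markers to 31.9 to 36.0, 50.4 to 55.9 and 15.8 to 19.7 CPM, with Lrat at 0 in WT, cholangiocyte markers to 249 to 266, 373 to 395 and 246 to 261 CPM, with Krt7 at 0 in tKO, and handling and inflammation genes to 5836 to 6001, 7589 to 7774 and 2290 to 2383 CPM, in tKO, dKO and WT in that order. The 8 hepatocyte markers summed to 47175 to 48945, 51572 to 52490 and 58783 to 61000 CPM in the same order. Singly they were split, with 2 called higher and 3 lower in tKO against WT (median −0.025 log2). In dKO against WT 2 were called higher and 3 lower as well (median −0.14 log2). Of 3 cholangiocyte markers tested, 1 was called higher and 0 lower in dKO against WT (median 0.01 log2). In tKO against WT 1 cholangiocyte marker was called higher and 1 lower (median −0.63 log2). The part of these in the P450 results was not tested.

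The Cyp2c enzymes oxidise drugs and form epoxides and alcohols from arachidonic and linoleic acid. Of 15 members, 13 passed the filter in hepatocytes; 4 rose and 8 fell in tKO against WT, and 3 rose and 9 fell in dKO against WT. Cyp2c69 (chromosome 19, 39842660 to 39886769, GRCm38) had 175, 172 and 160.3 CPM in tKO libraries, 175, 188 and 174 CPM in dKO libraries and 517, 537 and 529.9 CPM in WT libraries. Every tKO and dKO library lay at about the same level, far under every WT library. Its log2 fold change was −1.65 ± 0.0424 (SE; edgeR adjusted p = 3.61e-50) in tKO and −1.56 ± 0.0423 (edgeR adjusted p = 1.77e-48) in dKO against WT. Cyp2c40, near it on the chromosome, had 224, 219 and 199 CPM in tKO, 214, 230.4 and 223 CPM in dKO and 425, 419 and 428 CPM in WT. It fell too, with log2 fold changes of −0.99 in tKO and −0.93 in dKO against WT, and tKO and dKO overlapped again. Cyp2c37, which makes an alcohol of arachidonic acid, had 122, 118 and 120.1 CPM in tKO, 175, 182 and 189.6 CPM in dKO and 319.7, 330.2 and 314 CPM in WT. Its 3 groups did not overlap and stood in steps, with −1.42 ± 0.0447 log2 in tKO against WT, −0.82 ± 0.0430 in dKO against WT and −0.60 ± 0.0465 in tKO against dKO (edgeR adjusted p = 4.3e-19).

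Against that direction, Cyp2c67, a close relative in the same cluster, had 104, 96.7 and 103 CPM in tKO, 72.0, 70.6 and 73.7 CPM in dKO and 66.5, 59.9 and 54.4 CPM in WT. All tKO libraries stood above all dKO libraries, which stood above all WT libraries. It rose by 0.75 ± 0.0595 log2 in tKO against WT (edgeR adjusted p = 4.86e-19) and by 0.26 ± 0.0624 in dKO against WT (edgeR adjusted p = 0.000364). Reads of these genes are hard to place: of all 50-base windows of their transcripts, 60.3% of Cyp2c40, 54.3% of Cyp2c69, 52.8% of Cyp2c67 and 43.3% of Cyp2c68 also occur in another Cyp gene, so each single value is uncertain and reads may have been traded among them. Cyp2c68 stood at −0.32 in tKO and −0.29 in dKO against WT, called lower in both. The RefSeq promoter windows of the 4 genes (GRCm38.p6, minus strand, 250 bases before to 50 after the start) are shown because genes so alike moved in opposite directions. Capitals mark bases that differ from the aligned Cyp2c69 window, and in Cyp2c69 bases that differ from at least 1 of the others; ends that extend past the alignment are in lower case.
Cyp2c67 (chr19:39648993-39649292): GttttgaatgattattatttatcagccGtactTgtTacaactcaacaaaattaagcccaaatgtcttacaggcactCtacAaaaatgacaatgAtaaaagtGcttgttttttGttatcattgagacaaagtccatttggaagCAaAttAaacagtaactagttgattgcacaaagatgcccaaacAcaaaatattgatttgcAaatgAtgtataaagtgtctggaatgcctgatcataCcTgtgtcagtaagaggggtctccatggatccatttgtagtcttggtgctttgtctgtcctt
Cyp2c68 (chr19:39741052-39741351): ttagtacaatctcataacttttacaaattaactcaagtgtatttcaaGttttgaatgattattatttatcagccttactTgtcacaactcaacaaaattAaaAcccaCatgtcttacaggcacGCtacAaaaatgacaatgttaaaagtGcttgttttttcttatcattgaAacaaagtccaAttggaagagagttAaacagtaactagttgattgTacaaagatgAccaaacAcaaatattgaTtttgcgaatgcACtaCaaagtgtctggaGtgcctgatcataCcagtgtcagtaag
Cyp2c40 (chr19:39812765-39813064): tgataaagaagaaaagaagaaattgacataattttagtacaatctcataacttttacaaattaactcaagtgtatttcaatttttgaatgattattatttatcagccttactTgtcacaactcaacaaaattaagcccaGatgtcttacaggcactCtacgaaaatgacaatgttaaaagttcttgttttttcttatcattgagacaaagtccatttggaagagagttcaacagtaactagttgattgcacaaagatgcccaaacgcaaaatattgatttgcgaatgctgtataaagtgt
Cyp2c69 (chr19:39886720-39887019): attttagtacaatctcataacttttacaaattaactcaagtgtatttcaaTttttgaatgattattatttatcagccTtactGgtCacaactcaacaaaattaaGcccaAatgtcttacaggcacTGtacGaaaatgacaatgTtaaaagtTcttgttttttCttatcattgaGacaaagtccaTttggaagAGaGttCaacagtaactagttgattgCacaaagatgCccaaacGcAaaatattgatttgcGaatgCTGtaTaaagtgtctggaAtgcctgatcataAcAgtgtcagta
Over aligned columns, Cyp2c40 shared 98.9% of bases with Cyp2c69 (270 columns), Cyp2c67 shared 92.8% (250 columns) and Cyp2c68 92.6% (299 columns). Of these 4, the pair that fell most, Cyp2c40 and Cyp2c69, was alike at 267 of 270 bases. Cyp2c67, which rose, was like Cyp2c69 at 232 of 250, and Cyp2c68, which fell, at 277 of 299. A link between promoter likeness and direction was not tested.

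Among less alike Cyp2c genes, Cyp2c38 had 48.4, 41.7 and 50.8 CPM in tKO, 22.8, 19.7 and 20.1 CPM in dKO and 16.5, 17.1 and 17.8 CPM in WT. The tKO libraries were set apart from both other groups, at 1.46 ± 0.0873 log2 against WT and 1.17 ± 0.0838 against dKO (edgeR adjusted p = 7.16e-21). In dKO against WT it was called higher by 0.29 log2 (edgeR adjusted p = 0.0159), a call lost without WT 1 or dKO 4 (edgeR adjusted p = 0.0612 and 0.119). Cyp2c55, a gene of the intestine that liver expresses when its drug sensors are active, rested on 73, 86 and 76 counts in tKO, 18, 24 and 24 in dKO and 14, 14 and 12 in WT. It was higher in every tKO library, by 2.47 ± 0.227 log2 against WT and 1.77 ± 0.204 against dKO, from a low level of at most 1.53 CPM in WT. Its call in dKO against WT (0.70 log2, edgeR adjusted p = 0.0429) was lost in DESeq2 (adjusted p = 0.0972), without the low-count filter, with those groups fitted alone and without WT 1, WT 2, WT 3, dKO 5 or dKO 6 (edgeR adjusted p = 0.0536 to 0.122). Cyp2c23, an arachidonic acid epoxygenase, had 273, 273 and 273 CPM in tKO, 159, 168 and 165 CPM in dKO and 233, 229 and 236 CPM in WT. It lay above WT in all tKO libraries (0.23 ± 0.0416 log2) and under WT in all dKO libraries (−0.50 ± 0.0436), and rose by 0.73 ± 0.0429 in tKO against dKO (edgeR adjusted p = 7.07e-26; 0.0732 with the liver dispersion).

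Cyp2c70, which in mice turns chenodeoxycholic acid into muricholic acids, had 151, 135 and 137 CPM in tKO, 109, 109 and 113 CPM in dKO and 212, 204 and 206 CPM in WT. The groups did not overlap, and the fall was −0.56 ± 0.0464 log2 in tKO and −0.91 ± 0.0479 in dKO against WT. Cyp2c29, the Cyp2c gene with the highest FPKM in hepatocytes, had 548, 515 and 508 CPM in tKO, 430.3, 451 and 434 CPM in dKO and 726, 696 and 701 CPM in WT. It too fell less in tKO (−0.43) than in dKO (−0.69), with 0.26 ± 0.0382 in tKO against dKO (edgeR adjusted p = 6.03e-08). Cyp2c54 and Cyp2c50, both linoleic and arachidonic acid oxidases, stood at −0.72 and −0.50 in tKO and at −0.65 and −0.32 in dKO against WT, called lower in each. Windows that also occur in another Cyp gene made up 30.1% of Cyp2c37, 25.7% of Cyp2c54 and 18.3% of Cyp2c50. The values of these genes are therefore uncertain too. In tKO against dKO 6 of 13 Cyp2c members were called higher (Cyp2c23, Cyp2c29, Cyp2c38, Cyp2c55, Cyp2c67 and Cyp2c70) and 2 lower (Cyp2c37 and Cyp2c50).

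**Figure D2:**
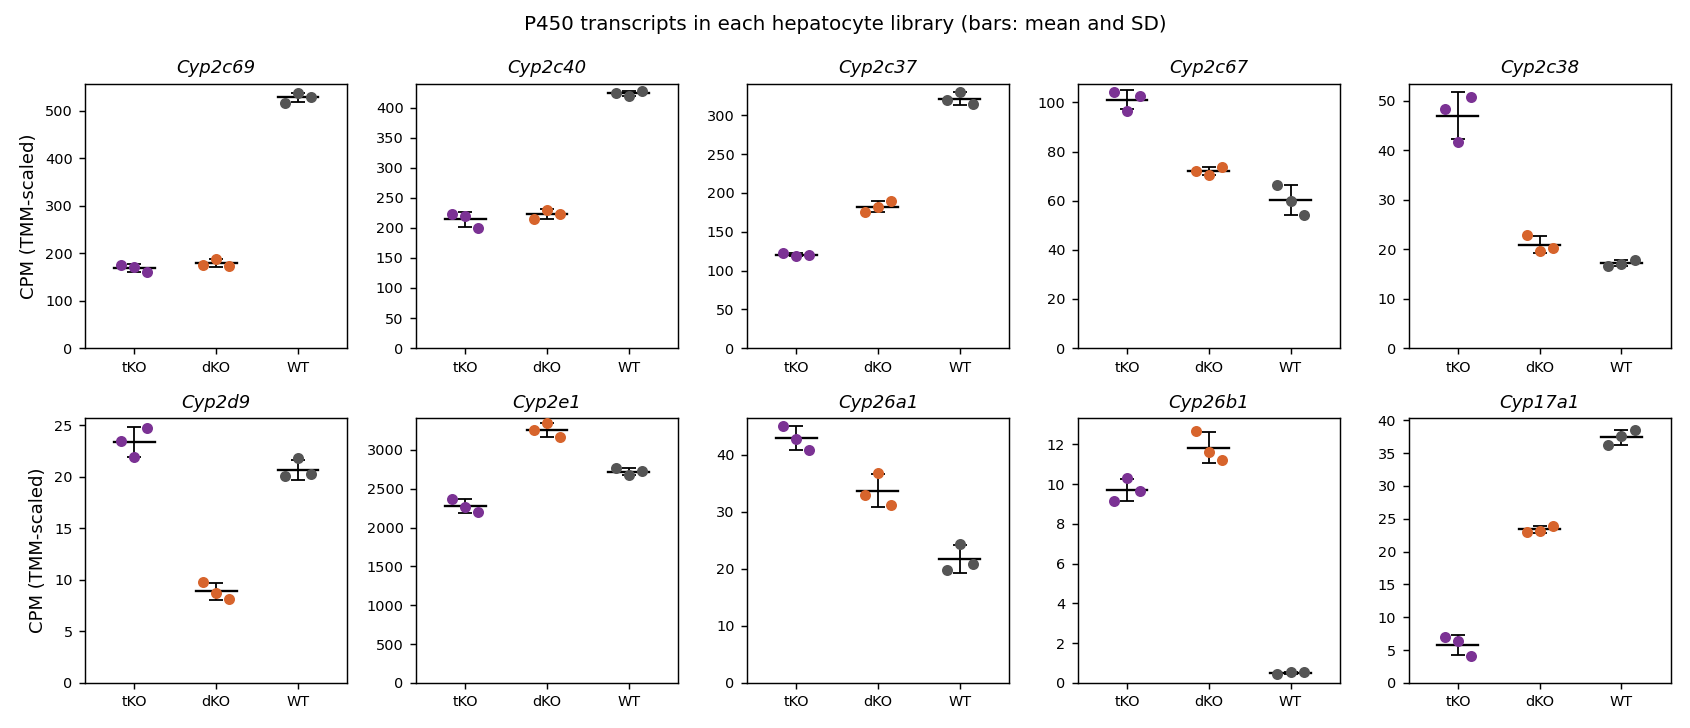
TMM-scaled CPM of 10 members in each hepatocyte library, with tKO, dKO and WT from left to right; points are libraries and bars are mean and SD (n = 3 each). Cyp2c69 and Cyp2c40 are low in all tKO and dKO libraries, Cyp2c67 and Cyp2c38 are highest in tKO, Cyp2d9 is low in dKO alone, and Cyp17a1 is lowest in tKO.

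The Cyp2d genes oxidise drugs and steroids. Of 8 members 5 passed the filter; 3 fell in tKO against WT, and 2 rose and 3 fell in dKO against WT. Cyp2d9, a testosterone 16-alpha-hydroxylase that is higher in male than in female mouse liver, had 23.5, 21.9 and 24.8 CPM in tKO, 9.82, 8.70 and 8.19 CPM in dKO and 20.05, 21.8 and 20.2 CPM in WT. The 3 dKO libraries stood under all 6 others. The change was −1.22 ± 0.115 log2 in dKO against WT (edgeR adjusted p = 2.26e-15) and 1.39 ± 0.112 in tKO against dKO (edgeR adjusted p = 2.26e-18), while tKO against WT gave 0.18 ± 0.0955 (edgeR adjusted p = 0.120). Cyp2d40 had 12.7, 15.4 and 11.4 CPM in tKO, 17.6, 15.6 and 17.9 CPM in dKO and 21.3, 23.8 and 22.8 CPM in WT. It fell, with a log2 fold change of −0.78 ± 0.107 in tKO and −0.41 ± 0.103 in dKO against WT. The abundant Cyp2d26 had 471, 498 and 465 CPM in tKO, 589.8, 597 and 590.5 CPM in dKO and 539, 556 and 549 CPM in WT, so that tKO lay under WT (−0.20) and dKO above it (0.11; edgeR adjusted p = 0.0552 without WT 1, where the call was lost). Cyp2d22, often likened to human CYP2D6, rose by 0.27 in dKO against WT and fell in tKO against dKO, with a log2 fold change of −0.26, and Cyp2d10 fell in both (log2 fold change −0.29 in tKO and −0.21 in dKO). Many windows of Cyp2d10, Cyp2d9 and Cyp2d40 occur in another Cyp gene (35.2%, 16.7% and 14.5%), so these values are uncertain too.

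Of the Cyp2j genes, arachidonic acid epoxygenases, 3 of 6 passed the filter. Cyp2j5 had 172, 148 and 150.1 CPM in tKO, 153, 161 and 160.2 CPM in dKO and 191, 198 and 208 CPM in WT. All tKO and dKO libraries stood under all WT libraries, with log2 fold changes of −0.35 and −0.33, both called lower. Cyp2j6 had 64.8, 61.9 and 64.5 CPM in tKO, 55.1, 49.1 and 51.7 CPM in dKO and 53.2, 53.6 and 49.7 CPM in WT, and rose in tKO, by 0.29 ± 0.0638 against WT and 0.29 ± 0.0637 against dKO. Cyp2j9 was not called in any comparison.

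Cyp2e1 moved in opposite directions in the 2 knockouts. It had 2371, 2266 and 2194 CPM in tKO, 3256, 3347 and 3171 CPM in dKO and 2762, 2673 and 2726 CPM in WT. All dKO libraries lay above and all tKO libraries under the WT libraries. The differences were −0.26 ± 0.0338 log2 in tKO against WT, 0.26 ± 0.0337 in dKO against WT and −0.52 ± 0.0338 in tKO against dKO (edgeR adjusted p = 4.97e-23), and none of them passed with the liver dispersion (edgeR adjusted p = 0.734, 0.808 and 0.411). Cyp2f2, which activates naphthalene and in liver marks hepatocytes near the portal vein, had 341, 360.1 and 330.1 CPM in tKO, 369, 364 and 351 CPM in dKO and 466, 487 and 514 CPM in WT. It fell in both (log2 fold change −0.51 in tKO and −0.44 in dKO against WT), with tKO and dKO overlapping. Cyp2g1, an enzyme of the olfactory lining, was under 2.2 CPM in every library and rose by 1.36 ± 0.397 in tKO against dKO, a value of 2.08 without dKO 5 and 1.01 without dKO 4, where the call was lost (edgeR adjusted p = 0.0712). Of the Cyp1 genes, targets of the aryl hydrocarbon receptor that oxidise aromatic hydrocarbons, Cyp1a1 rose by 0.93 ± 0.289 log2 in tKO against WT, on 28, 25 and 28 counts in tKO and 14, 13 and 13 in WT (edgeR adjusted p = 0.00528). Cyp1a2, the abundant Cyp1 gene and a caffeine oxidase, had 223, 243 and 226 CPM in tKO, 249, 242 and 245 CPM in dKO and 224, 235 and 219 CPM in WT, with no overlap of dKO and WT and 0.12 ± 0.0431 log2 between them (edgeR adjusted p = 0.0237), a call that ended without WT 1, WT 3, dKO 4 or dKO 6 (adjusted p = 0.0594 to 0.138).

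The Cyp4f enzymes hydroxylate leukotriene B4 and other lipids at or near their last carbon. Of 9 members 5 passed the filter, and 1 rose and 2 fell in each comparison with WT. Cyp4f14 had 95.0, 88.5 and 87.3 CPM in tKO, 95.3, 96.8 and 81.9 CPM in dKO and 129, 142 and 152 CPM in WT. Both knockouts stood under WT, with log2 fold changes of −0.64 ± 0.0565 in tKO and −0.62 ± 0.0568 in dKO, and overlapped each other. Cyp4f16 had 39.9, 41.5 and 40.6 CPM in tKO, 41.8, 41.6 and 47.3 CPM in dKO and 33.0, 32.2 and 32.2 CPM in WT, and rose by 0.33 log2 in tKO and 0.43 in dKO. Cyp4f13 fell, with log2 fold changes of −0.18 in tKO and −0.29 in dKO against WT. Its call in tKO was lost in DESeq2 (adjusted p = 0.0792), on library totals (edgeR adjusted p = 0.0725) and without WT 2, tKO 7 or tKO 9 (edgeR adjusted p = 0.0936 to 0.152). Cyp4v3, a fatty acid hydroxylase of the Cyp4 family, rose by 0.15 in tKO against WT. Cyp4b1, a family 4 enzyme best known from lung, was under 5 CPM, with 26, 17 and 25 counts in tKO, 28, 34 and 39 in dKO and 6, 5 and 12 in WT. Every tKO and dKO library was above every WT library, with log2 fold changes of 1.47 ± 0.351 in tKO and 2.10 ± 0.323 in dKO.

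The Cyp26 enzymes remove retinoic acid, and Cyp26a1 is itself a target of the retinoic acid receptor. Cyp26b1 (chromosome 6, 84571414 to 84593908) had 89, 99 and 95 counts in tKO and 119, 108 and 104 in dKO, against 4, 5 and 5 in WT. It was near absent in WT, at 0.438 to 0.541 CPM, and stood at 9.18, 10.3 and 9.65 CPM in tKO and 12.7, 11.6 and 11.2 CPM in dKO. The increase of 4.22 ± 0.260 log2 in tKO (edgeR adjusted p = 4.73e-25) and 4.51 ± 0.251 in dKO (edgeR adjusted p = 1.53e-27) was the largest of the 41 members. Against WT it moved the same way as the endothelial, macrophage and stellate marker sums given above. Between the knockouts, the macrophage sum was higher in tKO and the endothelial and stellate sums were higher in dKO. Cyp26b1 was not called there (−0.29 log2 in tKO against dKO, edgeR adjusted p = 0.112). The part of these markers was not tested. Cyp26a1 (chromosome 19, 37697808 to 37701528) had 45.1, 42.7 and 40.9 CPM in tKO, 32.9, 36.8 and 31.2 CPM in dKO and 19.7, 24.4 and 20.8 CPM in WT. The 3 groups did not overlap, and tKO was highest, by 0.99 ± 0.0841 log2 against WT and 0.35 ± 0.0776 against dKO (edgeR adjusted p = 0.000208), with 0.64 ± 0.0880 in dKO against WT. Cyp26c1 was listed at under 0.6 CPM in every library and did not pass the filter. The RefSeq promoter window of Cyp26a1 (GRCm38.p6, plus strand, chr19:37697558-37697857) is shown because a direct repeat of AGTTCA with a gap of 5 bases is a known form of retinoic acid response element. Capitals mark AGTTCA, here read on the opposite strand.
Cyp26a1: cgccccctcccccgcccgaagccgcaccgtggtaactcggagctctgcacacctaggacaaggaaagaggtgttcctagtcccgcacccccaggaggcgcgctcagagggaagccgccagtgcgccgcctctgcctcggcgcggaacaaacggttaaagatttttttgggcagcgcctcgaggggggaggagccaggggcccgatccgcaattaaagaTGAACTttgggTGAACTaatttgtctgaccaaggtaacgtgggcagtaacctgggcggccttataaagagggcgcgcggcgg
The window holds 2 copies of AGTTCA on the opposite strand, 5 bases apart. A search for that spacing on the printed strand alone found it in 5 of 32851 RefSeq promoter windows (0.015%). It was found so in 0 of the 56 windows that 49 of the 64 members have, as this search did not count the repeat in Cyp26a1. How often the spacing occurs on the opposite strand was not counted. AGTTCA alone occurs in 14.0% of all windows and in 8 of the 56, and these letters are not in the window of Cyp26b1.

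Cyp17a1, the 17-alpha-hydroxylase and 17,20-lyase of steroid synthesis (chromosome 19, 46667165 to 46672974), had 67, 62 and 40 counts in tKO, 215, 216 and 222 in dKO and 330, 348 and 355 in WT, or 6.91, 6.45 and 4.06 CPM, 22.9, 23.2 and 23.9 CPM and 36.2, 37.6 and 38.4 CPM. The groups stood in steps with no overlap. Its log2 fold change was −2.69 ± 0.114 in tKO against WT (edgeR adjusted p = 4.41e-35), −0.68 ± 0.0878 in dKO against WT (edgeR adjusted p = 3.69e-10) and −2.01 ± 0.124 in tKO against dKO (edgeR adjusted p = 1.64e-24). Cyp39a1, which hydroxylates 24-hydroxycholesterol on the way to bile acids, had 19.8, 19.4 and 19.2 CPM in tKO, 24.6, 25.5 and 28.6 CPM in dKO and 27.5, 24.2 and 25.4 CPM in WT. It fell in tKO, with log2 fold changes of −0.40 ± 0.0923 against WT and −0.43 ± 0.0918 against dKO, while dKO and WT overlapped. Cyp21a1, the steroid 21-hydroxylase, was under 7 CPM and shares 21.3% of its windows with a pseudogene; it rose by 0.83 ± 0.225 in dKO against WT, a call lost without dKO 4 (edgeR adjusted p = 0.0577). In tKO against dKO its log2 fold change was −0.72 ± 0.219 (edgeR adjusted p = 0.00782), a call lost in DESeq2 (adjusted p = 0.0537) and without dKO 4 or tKO 8 (edgeR adjusted p = 0.159 and 0.0516). Of the vitamin D genes, only the 25-hydroxylase Cyp2r1 passed the filter, with no call (−0.17 ± 0.146 in tKO and −0.15 ± 0.147 in dKO against WT), and Cyp20a1, an enzyme of unknown substrate, had none either.

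Summed over members, which is steadier where near-identical genes trade reads, Cyp2c stood at 2281, 2168 and 2161 CPM in tKO, 1975, 2037 and 2019 CPM in dKO and 3278, 3268 and 3309 CPM in WT libraries. The sums did not overlap, with the mean 32.9% under WT in tKO and 38.8% under WT in dKO. The retinoic acid genes summed to 54.7, 54.1 and 51.6 CPM in tKO, 45.8, 48.4 and 42.8 CPM in dKO and 20.1, 24.8 and 21.3 CPM in WT. The steroid and sterol genes summed to 30.6, 29.5 and 27.1, 54.6, 52.8 and 57.0 and 65.5, 65.3 and 67.4 CPM in tKO, dKO and WT, with the mean 56.0% under WT in tKO and 17% in dKO. Other Cyp2 genes, nearly all Cyp2e1 and Cyp2f2, were 16.6% under WT in tKO and 13.1% above it in dKO. The Cyp2d sum was 12.1% under WT in tKO and 1.03% under it in dKO, where falling Cyp2d9 and Cyp2d10 stood beside rising Cyp2d26 and Cyp2d22.

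**Figure D3:**
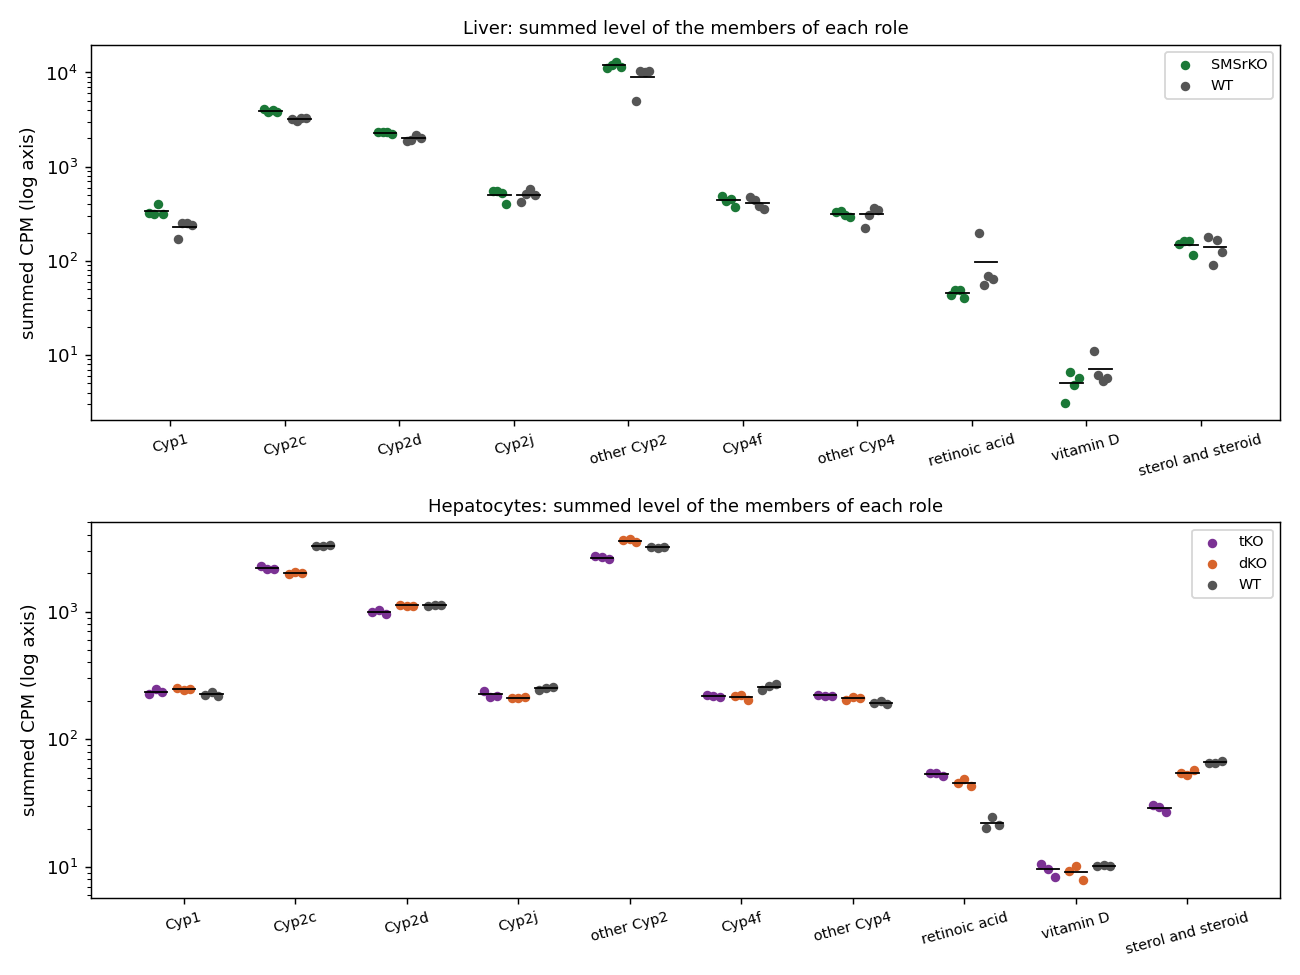
Summed CPM, on library totals and a log axis, of the members of each role but Cyp20a1 in every liver library (top: SMSrKO, then WT) and every hepatocyte library (bottom: tKO, dKO, WT); lines are group means. In hepatocytes the Cyp2c sums of tKO and dKO, from 1975 to 2281 CPM, lie under those of WT, from 3268 to 3309 CPM.

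In liver, the comparison asks what loss of SMSr changes on the diet. No member passed edgeR's test over all genes (0 of 46, where 0.234% of 15820 genes were called), at an unadjusted p under 0.05 the counts were 11 higher and 1 lower (5.97% and 7.15% of all genes), and DESeq2 called 5 higher and 0 lower (1.52% and 1.49% of all genes). In 6 members every SMSrKO library lay above every WT library (3.79% of all genes), and in 0 every one lay below (4.32%). The median log2 fold change was 0.16 over the 46 members and −0.01 over all genes. Cyp2c37 had the smallest p, with 927, 926, 999 and 916 CPM in SMSrKO and 518, 663, 641 and 679 CPM in WT. The lowest SMSrKO library stood above the highest WT library. Its log2 fold change was 0.59 ± 0.117 (edgeR adjusted p = 0.0874), or 0.51 without WT 1 (edgeR adjusted p = 0.0399), the only member called then, where 0.263% of all genes were called higher and 0.419% lower.

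Cyp1a2 had 342, 332, 406 and 297 CPM in SMSrKO and 173, 231, 258 and 226 CPM in WT. The difference was 0.63 ± 0.142 log2 (edgeR adjusted p = 0.119), or 0.53 without WT 1 (edgeR adjusted p = 0.0765). Cyp2c50 had 686, 647, 567 and 601 CPM in SMSrKO and 457, 415, 511 and 500.4 CPM in WT (0.41 ± 0.113 log2, edgeR adjusted p = 0.176). In both genes every SMSrKO library stood above every WT library, though the nearest ones were close. Cyp2c68 had 331, 282, 332 and 277 CPM in SMSrKO and 247, 220.2, 246 and 242 CPM in WT (0.35 ± 0.101 log2). Cyp2c69 had 376, 206, 303 and 189 CPM in SMSrKO and 105, 60.8, 179.8 and 126 CPM in WT (1.19 ± 0.339 log2, edgeR adjusted p = 0.210), with a wide spread in both groups. DESeq2 called these 5 genes, Cyp2c37, Cyp1a2, Cyp2c50, Cyp2c68 and Cyp2c69, all of them with groups that did not overlap. Of their 50-base windows, 30.1% of Cyp2c37, 18.3% of Cyp2c50, 43.3% of Cyp2c68 and 54.3% of Cyp2c69 also occur in another Cyp gene. Reads may have been traded among these Cyp2c genes, so their calls may not be separate results. Cyp2c40, whose groups overlapped through WT 3 (143 CPM, with 63.6 to 71.7 CPM in the other WT libraries), reached 1.03 log2 without that library and was then called. Cyp2e1 had 11274, 12031, 12804 and 10674 CPM in SMSrKO and 4718, 8878, 9379 and 9084 CPM in WT (0.55 ± 0.216 log2, edgeR adjusted p = 0.325), with WT 1 far under the rest, and stood at 0.36 log2 without WT 1 (edgeR adjusted p = 0.190). The Cyp2c sum stood at 3810.3 to 4063 CPM in SMSrKO and 3076 to 3323 CPM in WT. Hepatocyte markers stood higher in SMSrKO libraries too (79343 to 88169 against 60283 to 70912 CPM, 0 of 8 called by edgeR, 2 higher by DESeq2 and 2 higher at an unadjusted p under 0.05). Other lists went both ways. Medians were 0.56 log2 for lymphocyte and 0.20 log2 for cholangiocyte markers. They were −0.07 for endothelial, −0.32 for macrophage, −0.21 for stellate, −1.19 for neutrophil and −1.82 log2 for adipocyte markers (1 gene tested). In each of these lists edgeR called 0. Handling and inflammation genes had a median of −0.99 log2, with 0 of 10 called by edgeR, 2 lower by DESeq2 and 6 lower at an unadjusted p under 0.05. Erythroid markers summed to 37.4 to 44.5 CPM in SMSrKO and 41.2 to 149 CPM in WT, with a median of −1.76 log2, 0 of 4 called by edgeR and 3 lower by DESeq2 and at an unadjusted p under 0.05. The part of these lists in the liver values was not tested.

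The Cyp26 genes stood at the other end, in large part through WT 1. Cyp26b1 had 17.3, 17.8, 26.6 and 12.6 CPM in SMSrKO and 107, 28.9, 24.1 and 23.1 CPM in WT (−1.30 ± 0.550 log2, edgeR adjusted p = 0.373; −0.45 without WT 1). Cyp26a1 had 28.0, 31.9, 22.0 and 25.01 CPM in SMSrKO and 89.1, 20.98, 44.4 and 37.0 CPM in WT (−0.85 ± 0.394 log2; −0.36 without WT 1). In both genes WT library 1 was highest, and the SMSrKO libraries overlapped the other WT libraries. Summed, the retinoic acid genes had 43.9, 48.5, 48.7 and 40.8 CPM in SMSrKO and 196, 55.1, 69.0 and 64.6 CPM in WT. Every SMSrKO sum lay under every WT sum, also without WT 1. As TPM the sums overlapped, at 39.6 to 46.8 in SMSrKO and 42.4 to 153 in WT. Cyp17a1, with 118, 122, 101 and 54.6 CPM in SMSrKO and 143, 50.9, 122 and 62.6 CPM in WT, did not part the groups (0.06 ± 0.380 log2). Cyp2d26, Cyp2j5, Cyp4f15 and Cyp4v3, the leading members of their roles per length in liver, stood at 0.33, 0.10, 0.15 and 0.11 log2 with overlapping groups. Cyp21a1 had 0, 0, 0 and 0 counts in SMSrKO and 5, 3, 1 and 5 in WT and was under the filter.

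**Figure D4:**
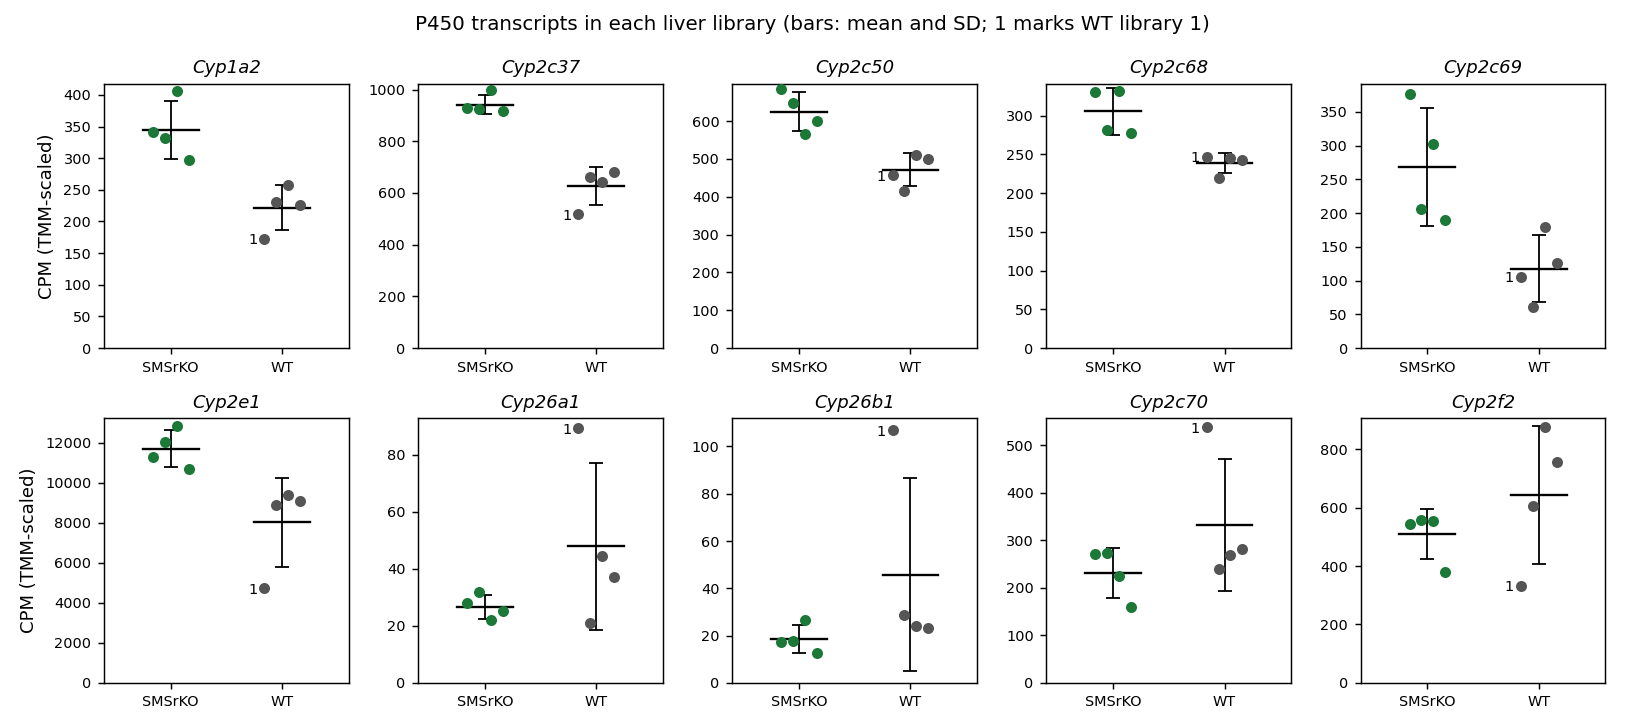
TMM-scaled CPM of 10 members in each liver library, SMSrKO left and WT right; points are libraries, bars are mean and SD (n = 4 each), and the digit 1 marks WT library 1. The groups are apart for Cyp1a2, Cyp2c37, Cyp2c50, Cyp2c68, Cyp2c69 and Cyp2e1, and the first WT library is highest for Cyp26a1, Cyp26b1 and Cyp2c70.

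Genes that work with the P450 enzymes were read from lists of electron donors, haem synthesis and breakdown, epoxide hydrolases, the aryl hydrocarbon receptor pathway and a small group outside the symbol rule, which holds the P450 genes Cyp51, Tbxas1 and Ptgis and the prostaglandin E synthase Ptges, no P450. Of 31 tested in hepatocytes, 6 rose and 8 fell in tKO against WT, 6 rose and 10 fell in dKO against WT, and 7 rose and 7 fell in tKO against dKO, with medians of −0.02, 0.03 and 0.05 log2. The shares called were 19.4% higher and 25.8% lower in tKO against WT, 19.4% and 32.3% in dKO against WT, and 22.6% and 22.6% in tKO against dKO, beside 25.6% and 21.8%, 24% and 20%, and 14.3% and 15.2% of all genes. In tKO against WT the share called in either direction, 14 of 31, was thus near the 47.4% of all genes, and the genes named next are given as values beside the P450 genes. In liver 0 of 32 passed edgeR or DESeq2, 0 were higher and 4 lower at an unadjusted p under 0.05, and the median was −0.05. Por, the reductase that feeds electrons to microsomal P450, stood at 579.6 ± 19.9 CPM in tKO, 600.5 ± 31.8 CPM in dKO and 589 ± 20.4 CPM in WT (SD, n = 3 each), with no call against WT (−0.02 in tKO, 0.03 in dKO). Alas1, the rate-limiting enzyme of haem synthesis, stood at 173 ± 7.36, 148 ± 2.10 and 183 ± 8.12 CPM in tKO, dKO and WT and fell in dKO, with a log2 fold change of −0.31 (edgeR adjusted p = 4.49e-08). Fech, which inserts iron into haem, fell in both (log2 fold change −0.39 in tKO and −0.43 in dKO against WT). Ahr, the receptor that drives Cyp1 genes, rose by 0.51 in dKO, and its target and repressor Tiparp rose by 0.74 in tKO and 0.89 in dKO. Ephx1, the microsomal epoxide hydrolase, stood at 381 ± 10.1, 285 ± 6.16 and 282 ± 10.6 CPM and rose in tKO by 0.44 against WT. Blvrb, a biliverdin reductase, rose by 0.72 in tKO against WT, and Cyp51, the sterol demethylase, by 0.25 in dKO against WT. Ptges rose by 0.70 in tKO and 1.24 in dKO against WT. Cpox, of haem synthesis, and the electron donor Cyb5b fell in tKO against WT, with log2 fold changes of −0.41 and −0.23. In tKO against dKO the quinone reductase Nqo1 rose by 0.48 and Pgrmc2, a haem-binding partner of P450 enzymes, stood at −0.27, called lower. In liver the smallest p among these genes was that of Cyp51, at 7.92 ± 0.729 CPM in SMSrKO and 13.9 ± 5.63 CPM in WT (edgeR adjusted p = 0.209).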

How the data were processed

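Deposited files held read counts per gene for liver, with a deposited table of TPM (transcripts scaled to length and library size) by the authors, and expected counts with FPKM (fragments scaled likewise) for hepatocytes, per the file headers. The submitters' processing notes name the builds GRCm38 and mm10 and the tools DESeq2 1.30.1, Bowtie2 2.2.5, STAR 2.5.2b and Trimmomatic 0.36, with no role for each. The sources used here give neither the counting tool nor the strand setting. Groups came from the genotype labels, 17 libraries in 5 groups. Genes passed edgeR's filterByExpr (minimum count 10), and TMM scaling and the robust quasi-likelihood test (edgeR 4.0.16, limma 3.58.1, R 4.3.3) were run per experiment with Benjamini-Hochberg adjustment over all genes tested; calls are at an adjusted p under 0.05. Expected counts were rounded, since 6.25% were not whole. Values per library are TMM-scaled CPM; sums use CPM on library totals, and SE is the log2 fold change over the square root of the test's F. No replicate pair agreed within counting noise, but hepatocyte pairs came far closer to it than liver pairs. For genes with mean counts of 10 to 200, hepatocyte pairs had a chi-square per degree of freedom of 1.28 to 1.48. Liver pairs had 3.30 to 8.90 for such genes. Whether the hepatocyte replicates are separate animals is not settled by these values. Genes named were, in each comparison and role, up to 3 called members with the largest log2 fold change among those with a mean of at least 5 CPM and groups that did not overlap, each role's most abundant member, the 5 members with the smallest p in liver and the 6 partner genes with the smallest p in each comparison of hepatocytes; others were added after their values were seen. The members, roles and gene lists were chosen with earlier results of these data known. The fit was also run on simulated counts of 2 groups, drawn with the common dispersion for all genes. That setting is simpler than the data, so nothing is drawn from it about the calls. Alternatives were DESeq2 1.42.0, RLE scaling, library totals, no low-count filter, each library left out, 2 groups at a time, liver dispersion for hepatocytes and sums of TPM. The liver dispersion was the common value, set for all genes and used with edgeR's likelihood ratio test. It holds no spread particular to a gene. Promoters were read from RefSeq tables of GRCm38.p6, which held 49 of the 64 members.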

Additional observations from a re-analysis of the deposited data

Results flagged for a closer look

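In liver, members with a group mean of at least 1 CPM were checked in each group of 4 libraries by Dixon's criterion at the 95% level. Chance gives about 1 in 20 for a single such set, but the sets share their libraries, so this is no chance rate for the total. Of 86 sets, 10 held a library far from the others, and 6 of the 10 were in WT library 1. In that library Cyp2e1 stood at 4718 CPM, with 8878 to 9379 CPM in the other WT libraries. It was high for Cyp26b1 (107 CPM, others 23.1 to 28.9), Cyp2c70 (538 CPM, others 240.0 to 282), Cyp2c54 (76.1 CPM, others 23.1 to 30.0), Cyp2d10 (621 CPM, others 533 to 544) and Cyp2r1 (11.3 CPM, others 5.18 to 5.59). The same library had the highest sum of handling and inflammation genes, 5996 CPM, and the part of that in these values was not tested. WT library 3 was high for Cyp2c40 (143 CPM, others 63.6 to 71.7). Among SMSrKO libraries, number 7 was high for Cyp2c37 (999 CPM, others 916 to 927), and number 8 was low for Cyp2d10 (525 CPM, others 654 to 671) and Cyp2f2 (380.2 CPM, others 545 to 559).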

How the results depend on the processing

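In liver the count of members called, 0 in edgeR, was 5 in DESeq2, 2 without the low-count filter and 0 to 1 with single libraries left out, the 1 being Cyp2c37 without WT 1 and Cyp2c40 without WT 3. In hepatocytes, the liver dispersion gave 12 calls in tKO against WT, 8 in dKO against WT and 4 in tKO against dKO, in place of 29, 29 and 19; leaving out single libraries gave 28 to 29, 25 to 29 and 18 to 19. Among 50 pairs of a named gene and a comparison, 0 changed direction under any alternative run. These pairs were picked as called, or by smallest p in liver, and their groups did not overlap. A change of direction was thus unlikely from the outset, and the count says nothing about other members. Cyp2d40 lost its call in tKO against dKO without tKO 9. Summed as TPM, the retinoic acid genes stood 76.6% above WT in dKO (107% in CPM), and the sterol and steroid genes at −62.0% in tKO and −20.8% in dKO against WT (−56.0% and −17.0% in CPM). TPM is scaled to length and CPM is not, so longer genes weigh less in TPM sums. Cyp26b1 has 5352 bases and Cyp26a1 1773, and Cyp39a1 has 3053 and Cyp17a1 2166. How much of the gap this makes was not tested. Cyp26c1 in liver stood at −0.54 log2, or 0.10 without WT 1. Cyp2f2 in liver stood at −0.34 log2 (edgeR adjusted p = 0.628), or −0.56 without WT 1 (edgeR adjusted p = 0.155). No paired analysis was possible because groups that were compared share no replicate numbers. Depth limits genes under 5 CPM in hepatocytes, such as Cyp4b1 and Cyp2g1. Values of near-identical Cyp2c and Cyp2d genes rest on how shared reads were placed.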
